A study of Mus musculus with 24 samples.

Results

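Long H3K36me3 domains are stretches of chromatin in which H3K36me3 peaks follow each other almost without a break over 50000 bp or more. They were chosen by H3K36me3 values themselves, in the H3K36me3 peak list of untreated macrophages with a scrambled hairpin: peaks at most 1000 bp apart were joined, and joined domains of at least that length were kept. How much of them that list covers is therefore fixed by the choice. This left 562 of 20940 joined domains, or 2.68% of the domains and 15.6% of their summed length, 37.8 of 243 Mb.

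H3K36me3 is trimethylation of lysine 36 of histone H3. In mammals most of it is laid down by SETD2, an enzyme that travels with RNA polymerase II (Pol II) whose C-terminal repeats carry phosphate on serine 2 (Ser2P), so the mark lies over the bodies of transcribed genes. Total Pol II gathers near promoters, which carry H3K4me3, while the Ser2P form increases along a gene and is known for its peak around the site where the transcript is cleaved and transcription ends. WDR82 is a subunit of the SET1 complexes, which methylate lysine 4 of histone H3, and of a PNUTS phosphatase complex that takes part in ending transcription.

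The study measured chromatin immunoprecipitation and sequencing (ChIP-seq) in mouse bone marrow-derived macrophages from FVB/Hsd mice, used on day 7 of growth in culture. The cells carried a retroviral vector with a hairpin against Wdr82 (shWdr82), with a scrambled hairpin, or with no hairpin (empty vector), and were selected with puromycin. They were left untreated (UT) or given 10 ng/ml of LPS, the endotoxin of bacterial outer membranes, to which macrophages respond. Of the 24 libraries, the 12 followed here in depth are H3K36me3, Ser2P Pol II and total Pol II in 4 groups each: shWdr82 UT, scrambled UT, shWdr82 LPS and scrambled LPS. The titles give 45 min of LPS for these 3 antibodies and for H3K4me1, and 4 h for H3K4me3 and H3K27ac, whose control is the empty vector. The protocol text speaks of 4 h alone. All knockdown libraries rest on 1 hairpin.

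Each group is 1 library. Replicate error is therefore unknown, values are set side by side without a test, and there are no p-values. The intervals printed with shares are exact (Clopper-Pearson) 95% binomial intervals. They cover counting error only, and neighbouring domains of 1 library are not independent replicates. The lists give positions and scores of peaks called by the authors, and no read counts, so the depth behind a value is unknown. Cover means the percentage of bases under peaks of a list. A base outside the peaks is not known to lack the mark. The lists held 14420 to 65149 peaks each. No gene annotation of the mm9 build of these lists was used here, so the domains carry no gene names, and the defining genes of macrophages could not be checked.

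Length varied from 50070 to 166821 bp among the long domains, with a median of 61365 bp and quartiles of 55158 and 75542 bp. Most were chains of peaks: the median domain joined 5 peaks, the most divided joined 19, and 25 of the 562 were 1 peak alone. Only 31 reached 100000 bp. The longest lay at chr4:144615272-144782092 (mm9, counted from 1), and the next at chr11:34123903-34283057. The 3 domains just inside the length limit measured 50070, 50085 and 50086 bp, and the 3 just outside 49999, 49954 and 49919 bp. Chromosomes 2, 5 and 11 held the most, with 54, 46 and 44, and the X chromosome held 2. Among the joined domains of a chromosome, the share that was long ran from 0.24% on the X chromosome to 3.84% on chromosome 12. Only 102 long domains had no other H3K36me3 domain nearby: 638 of their 1124 flanks, the 20 kb beyond each end, held another H3K36me3 domain of the same list (56.8%).

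H3K4me3 lay at the ends of the long domains far more than within them. An end was said to have H3K4me3 where a peak of the empty vector UT list lay between 10 kb outside and 5 kb inside it. By that rule 273 long domains had it at 1 end (48.6%), 112 at both and 177 at neither. Among 7001 joined domains of 10 to 50 kb, called shorter domains from here on, 3158 had it at 1 end (45.1%), 1463 at both and 2380 at neither. Inside the long domains, cover by H3K4me3 was 0.235% in shWdr82 UT cells, 0.503% in empty vector UT cells, 0.292% in shWdr82 LPS cells and 0.431% in empty vector LPS cells. In the 20 kb beyond the ends it was 5.57% in shWdr82 UT cells, 6.72% in empty vector UT cells, 6.15% in shWdr82 LPS cells and 6.25% in empty vector LPS cells. The 273 domains with H3K4me3 at 1 end gave a direction, from the end with the mark to the end without it. This direction is inferred from the mark and not taken from annotated genes.

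Other active marks were sparse but common inside the long domains. H3K27ac, an acetylation of active promoters and enhancers, had a peak in 65.0% of them in shWdr82 UT cells, 65.8% in empty vector UT cells, 61.9% in shWdr82 LPS cells and 64.6% in empty vector LPS cells. H3K4me1, a mark of enhancers, had one in 86.5% in shWdr82 UT cells, 88.8% in scrambled UT cells, 86.3% in shWdr82 LPS cells and 89.3% in scrambled LPS cells. Per length the long domains held fewer such peaks than the shorter ones. H3K4me3 peaks numbered 0.37 per 100 kb in long domains of shWdr82 UT cells, against 0.988 per 100 kb in shorter ones, and 0.507 against 1.41 in empty vector UT cells. H3K27ac peaks numbered 2.43 against 3.42 per 100 kb in shWdr82 UT cells and 2.51 against 3.46 in empty vector UT cells.

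The H3K36me3 lists other than the one that drew the domains covered most of them, but not all and not evenly. Pooled over the 562 domains, cover was 81.8% in shWdr82 UT cells, 87.5% in shWdr82 LPS cells and 78.3% in scrambled LPS cells. In the scrambled UT list it was 98.6%, which the choice fixes. The median domain was covered to 96.9% in shWdr82 UT cells, 96.3% in shWdr82 LPS cells and 96.3% in scrambled LPS cells, so a minority of domains made the pooled values low. Cover of 90% or more was found in 407 domains in shWdr82 UT cells, 414 in shWdr82 LPS cells and 374 in scrambled LPS cells, and 264 domains had it in all 4 lists. At the other extreme, 25 domains in shWdr82 UT cells, 8 in shWdr82 LPS cells and 25 in scrambled LPS cells held no H3K36me3 peak at all. Cover under 20% was found in 86 domains in at least 1 of these 3 lists and in 5 domains in all 3 of them. These counts are of long domains alone. As a mean per domain, cover was 82.3% in shWdr82 UT cells, 87.7% in shWdr82 LPS cells and 78.7% in scrambled LPS cells. In shorter domains it was 89.8%, 89.5% and 88.7% in that order, and in all joined domains 77.9%, 76.8% and 74.5%. Incomplete cover by these lists was thus not particular to long domains.

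**Figure D1:**
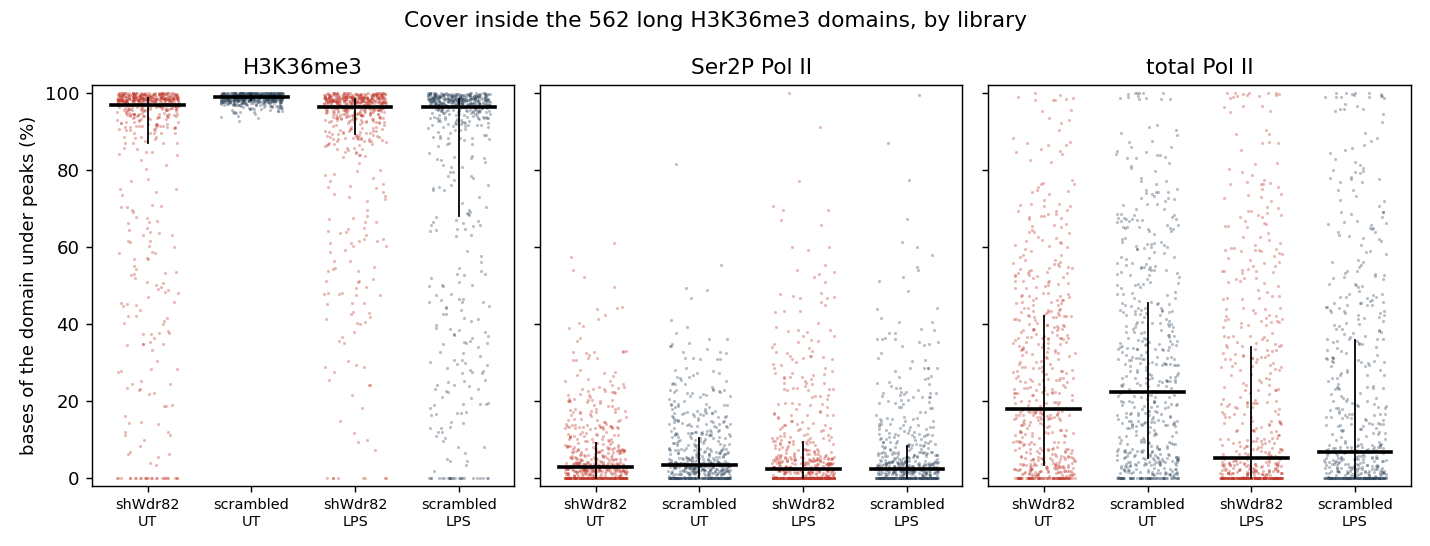
Cover of each of the 562 long H3K36me3 domains (points; y axis, percentage of the domain's bases under peaks) by the lists of 3 antibodies, with the 4 groups along the x axis. Thick bars are medians and thin lines run over the quartiles. H3K36me3 medians lie above 96% in all 4 groups, with a tail of low domains in the 3 lists that did not draw them. Ser2P medians lie below 4%, and total Pol II medians are 17.9% and 22.4% in shWdr82 UT and scrambled UT cells and 5.21% and 6.80% in shWdr82 LPS and scrambled LPS cells.

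The bases that these lists missed were bundled into wide gaps. Gaps of 5000 bp or more held 86.1% of the uncovered bases in shWdr82 UT cells, 73.0% in shWdr82 LPS cells and 88.1% in scrambled LPS cells. There were 159 such gaps in shWdr82 UT cells, the widest of 106804 bp. In shWdr82 LPS cells there were 127, the widest of 95470 bp, and in scrambled LPS cells 184, the widest of 106804 bp. Pol II peaks were present in these gaps, and apart from total Pol II in shWdr82 LPS cells their cover lay within 2 percentage points of that of the rest of the domains. Total Pol II of shWdr82 UT cells covered 27.5% of the wide gaps of the shWdr82 UT H3K36me3 list, against 25.6% of the remaining bases. In scrambled LPS cells the same comparison gave 20.2% against 21.7%, and in shWdr82 LPS cells 14.6% against 21.5%. Ser2P gave 5.01% against 6.96% in shWdr82 UT cells, 7.03% against 8.62% in shWdr82 LPS cells and 6.39% against 7.00% in scrambled LPS cells. Its cover, low throughout, was thus lower in the gaps in each of these groups. Of the wide gaps in shWdr82 UT cells, 70 (44.0%) corresponded to a single peak of the scrambled UT H3K36me3 list. In shWdr82 LPS cells 71 did so (55.9%), and in scrambled LPS cells 90 (48.9%). Whether H3K36me3 was absent in the wide gaps, or only its peaks, was not tested.

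Domains drawn by the same rule in each of the other H3K36me3 lists showed the same picture from the other side. The rule gave 548 long domains in the shWdr82 UT list, 510 in the shWdr82 LPS list and 473 in the scrambled LPS list. Of the 562 long domains of the scrambled UT list, 68.9% overlapped a long domain of shWdr82 UT, 68.9% one of shWdr82 LPS and 62.8% one of scrambled LPS. In the other direction, 70.4% of the shWdr82 UT domains, 75.9% of the shWdr82 LPS domains and 74.6% of the scrambled LPS domains overlapped one of the 562. Each list covered 98.6% to 98.7% of its own long domains and 77.3% to 88.9% of those drawn in another. The scrambled LPS list gave the lowest cover of domains drawn in each of the other 3 lists, at 80.9% of those of shWdr82 UT, 78.3% of those of scrambled UT and 77.3% of those of shWdr82 LPS.

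**Figure D2:**
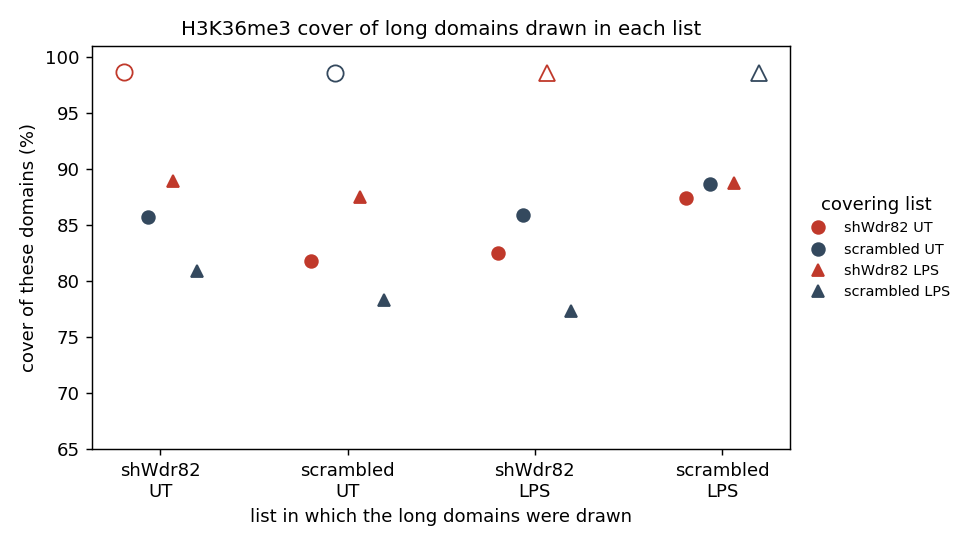
Cover (y axis, percentage of bases, cut off below) of the long domains drawn in each H3K36me3 list (x axis) by the 4 H3K36me3 lists (circles for UT, triangles for LPS, open where a list covers its own domains). Open symbols lie at 98.6% to 98.7%, and filled symbols between 77.3% and 88.9%.

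Between shWdr82 and scrambled cells after LPS, a comparison whose lists took no part in the choice, H3K36me3 cover inside averaged 87.7% in shWdr82 LPS cells and 78.7% in scrambled LPS cells over the 562 domains. The difference was not spread evenly: 271 domains were higher and 286 lower in shWdr82 LPS cells, with a median difference of -0.06 percentage points. It lay in domains that differed by much. Whether the mark differed in those domains, or only its peaks, was not tested. A difference of 10 percentage points or more was used to call a domain. By that rule 134 domains were called higher in shWdr82 LPS cells (23.8%) and 59 lower (10.5%). Of all joined domains 20.9% were called higher and 17.3% lower, and of the shorter ones 11.9% higher and 11.5% lower. In UT cells the comparison used the list that drew the domains, so only its size is given: cover averaged 82.3% in shWdr82 UT cells and 98.6% in scrambled UT cells, and 150 domains were called lower, with 36.7% of all joined domains called lower in the same way.

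LPS against UT within shWdr82 cells, which also left out the choosing list, gave 87.7% in shWdr82 LPS cells and 82.3% in shWdr82 UT cells. There 102 domains were called higher with LPS, against 11.2% of all joined domains, and 49 lower, against 14.9%. In scrambled cells, where the choosing list took part, cover averaged 78.7% with LPS and 98.6% without. Beyond the ends the H3K36me3 lists lay close together, with cover of 28.7% in shWdr82 UT cells, 27.3% in scrambled UT cells, 28.2% in shWdr82 LPS cells and 28.0% in scrambled LPS cells.

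Ser2P Pol II peaks were small islands in the long domains. Pooled cover inside was 6.65% in shWdr82 UT cells, 6.83% in scrambled UT cells, 8.47% in shWdr82 LPS cells and 6.89% in scrambled LPS cells. At least 1 Ser2P peak was present in 71.7% of the domains (67.8% to 75.4%) in shWdr82 UT cells and in 73.7% (69.8% to 77.3%) in scrambled UT cells. After LPS it was 62.5% (58.3% to 66.5%) in shWdr82 cells and 66.0% (61.9% to 69.9%) in scrambled cells. The larger cover in shWdr82 LPS cells was thus not spread over more domains. Shorter domains had higher Ser2P cover, at 9.03% in shWdr82 UT cells, 10.5% in scrambled UT cells, 10.2% in shWdr82 LPS cells and 9.89% in scrambled LPS cells. As means per domain, all joined domains had 7.06% in shWdr82 UT, 8.79% in scrambled UT, 8.14% in shWdr82 LPS and 7.95% in scrambled LPS cells. Long domains had 6.90%, 7.14%, 8.55% and 7.18% in that order. Ser2P cover also went with H3K4me3 at the ends. In UT cells the 112 long domains with H3K4me3 at both ends had 10.7% in shWdr82 and 11.5% in scrambled cells, and the 177 with it at neither had 4.05% in shWdr82 and 3.96% in scrambled cells. Within the long domains cover was lower in longer ones: when split into 3 length classes, the shortest, middle and longest had 8.35%, 6.65% and 5.70% in shWdr82 UT cells and 8.60%, 7.17% and 5.65% in scrambled UT cells.

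Total Pol II covered more of the long domains than Ser2P in every group. Pooled cover inside was 25.9% in shWdr82 UT cells, 28.9% in scrambled UT cells, 20.8% in shWdr82 LPS cells and 21.4% in scrambled LPS cells. No total Pol II peak was found in 76 domains in shWdr82 UT cells, 61 in scrambled UT cells, 179 in shWdr82 LPS cells and 161 in scrambled LPS cells. Cover differed far more between domains than between groups, from 0% to 100% in each list. Relative to their 20 kb flanks the domains were rich in total Pol II and poor in Ser2P. Beyond the ends total Pol II cover was 20.6% in shWdr82 UT cells, 21.9% in scrambled UT cells, 16.8% in shWdr82 LPS cells and 17.3% in scrambled LPS cells. Ser2P cover there was 8.85% in shWdr82 UT cells, 9.45% in scrambled UT cells, 11.2% in shWdr82 LPS cells and 8.87% in scrambled LPS cells.

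The maxima of pooled cover by the 2 Pol II readouts lay at opposite ends of the 273 domains with an inferred direction. Total Pol II was highest in the 2 kb just outside the end with H3K4me3, with cover of 53.2% in shWdr82 UT cells, 57.4% in scrambled UT cells, 45.7% in shWdr82 LPS cells and 46.5% in scrambled LPS cells. Ser2P was highest in the first 2 kb past the end without H3K4me3, at 33.9% in shWdr82 UT cells, 33.2% in scrambled UT cells, 30.2% in shWdr82 LPS cells and 28.5% in scrambled LPS cells. In the last of 10 equal parts of the domains, before that end, Ser2P covered 17.5% in shWdr82 UT cells, 19.3% in scrambled UT cells, 16.6% in shWdr82 LPS cells and 15.7% in scrambled LPS cells. Total Pol II had a second, lower maximum past the end without H3K4me3, at 34.9% in shWdr82 UT cells, 36.4% in scrambled UT cells, 23.0% in shWdr82 LPS cells and 23.2% in scrambled LPS cells. The Ser2P maximum thus lay around the end of the domain on the side where transcription by this direction would end. Each inner part was wider than the 2 kb steps outside and averages over more bases. These values therefore cannot tell whether a maximum lay just inside or just outside an end.

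**Figure D3:**
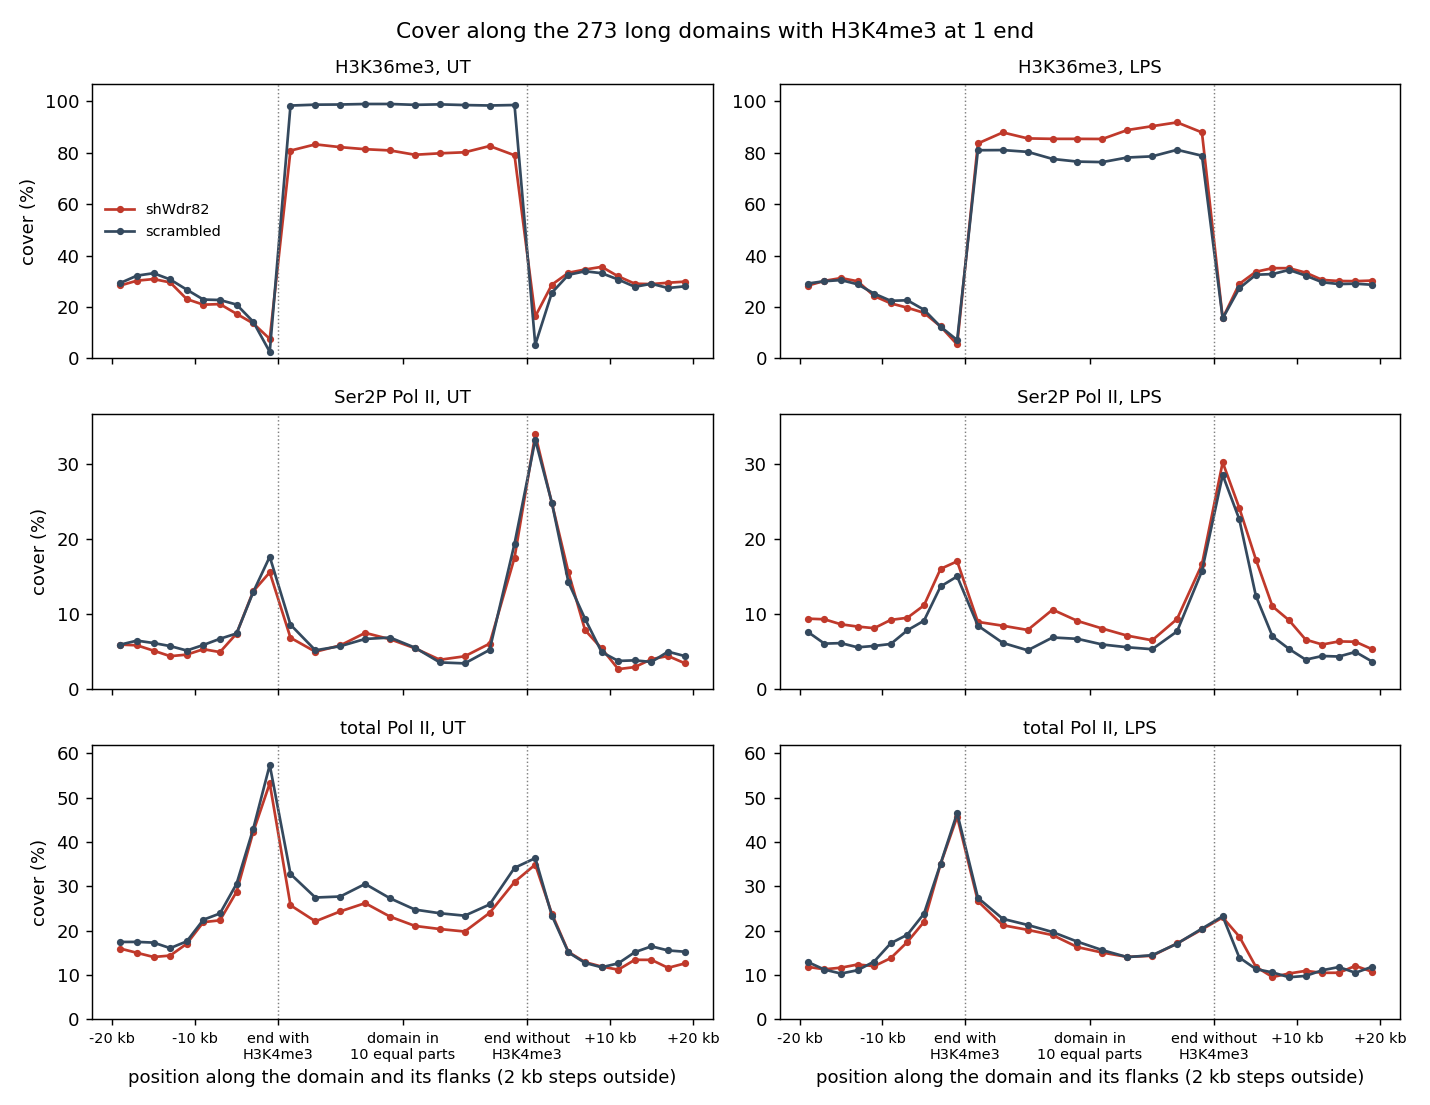
Cover (y axis, percentage of bases) by H3K36me3, Ser2P Pol II and total Pol II along the 273 long domains with H3K4me3 at 1 end, in UT cells (left) and after LPS (right). The x axis runs from 20 kb before the end with H3K4me3, through 10 equal parts of the domain between the dotted lines, to 20 kb past the other end. Lines are shWdr82 and scrambled libraries, 1 each. Of the points shown, total Pol II is highest at the end with H3K4me3 and Ser2P in the first step past the end without it. Points inside stand for wider stretches than the 2 kb steps outside. After LPS the shWdr82 line of Ser2P runs above the scrambled line throughout, over both flanks and all 10 parts of the domain.

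Taken domain by domain, total Pol II covered more of the flank at the end with H3K4me3 in 173 domains and less in 87 in shWdr82 UT cells, and in 184 and 83 in scrambled UT cells. After LPS the counts were 170 and 79 in shWdr82 cells and 176 and 72 in scrambled cells. Ser2P leaned the other way, though less: the flank past the end without H3K4me3 had more in 125 domains and less in 83 in shWdr82 UT cells, and in 121 and 89 in scrambled UT cells. After LPS the counts were 110 and 93 in shWdr82 cells and 107 and 82 in scrambled cells. As shares of those that differed, the UT intervals were 53.1% to 66.8% in shWdr82 and 50.6% to 64.4% in scrambled cells. After LPS they were 47.1% to 61.2% in shWdr82 and 49.2% to 63.8% in scrambled cells, which include an even split. H3K36me3 of the scrambled UT list is low right at the ends by the choice, since joining leaves no peak of that list within 1000 bp of an end. Cover by H3K36me3 reached 35.6% in shWdr82 UT cells and 33.1% in scrambled UT cells 8 to 10 kb past the end without H3K4me3.

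In untreated cells mean Ser2P cover differed little between shWdr82 and scrambled cells, though by count more domains were lower inside. Inside, it averaged 6.90% in shWdr82 UT cells and 7.14% in scrambled UT cells, and was higher in 190 domains and lower in 259. That is higher in 42.3% (37.7% to 47.0%) of those that differed. Called domains were few, with 13 higher and 10 lower (2.31% and 1.78%), against 2.94% and 8.32% of all joined domains. In the 31 domains of 100000 bp or more, 68.0% of those that differed were higher in shWdr82 UT cells. Beyond the ends it averaged 8.85% in shWdr82 UT cells and 9.45% in scrambled UT cells, with 11 domains called higher and 30 lower (1.96% and 5.34%), against 2.04% and 3.51% of all joined domains.

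After LPS, Ser2P cover was higher in shWdr82 cells, most evenly so beyond the ends. In the flanks it averaged 11.2% in shWdr82 LPS cells and 8.87% in scrambled LPS cells, a difference of 2.34 percentage points. It was higher in 295 domains and lower in 123, or higher in 70.6% (66.0% to 74.9%) of those that differed, and the mean was higher on 19 chromosomes and lower on none. Called domains numbered 54 higher and 10 lower (9.61% and 1.78%), against 7.34% and 1.96% of all joined domains and 8.78% and 2.87% of the shorter ones. Inside, Ser2P averaged 8.55% in shWdr82 LPS cells and 7.18% in scrambled LPS cells, with 226 domains higher and 174 lower. That is higher in 56.5% (51.5% to 61.4%) of those that differed. There 45 domains were called higher and 13 lower (8.01% and 2.31%), against 5.25% and 5.46% of all joined domains. The whole Ser2P list of shWdr82 LPS cells covered 1.36 times as many bases as that of scrambled LPS cells, 60.6 against 44.7 Mb. The ratio was 1.23 inside the long domains and 1.26 beyond them, so neither exceeded the ratio over the list.

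**Figure D4:**
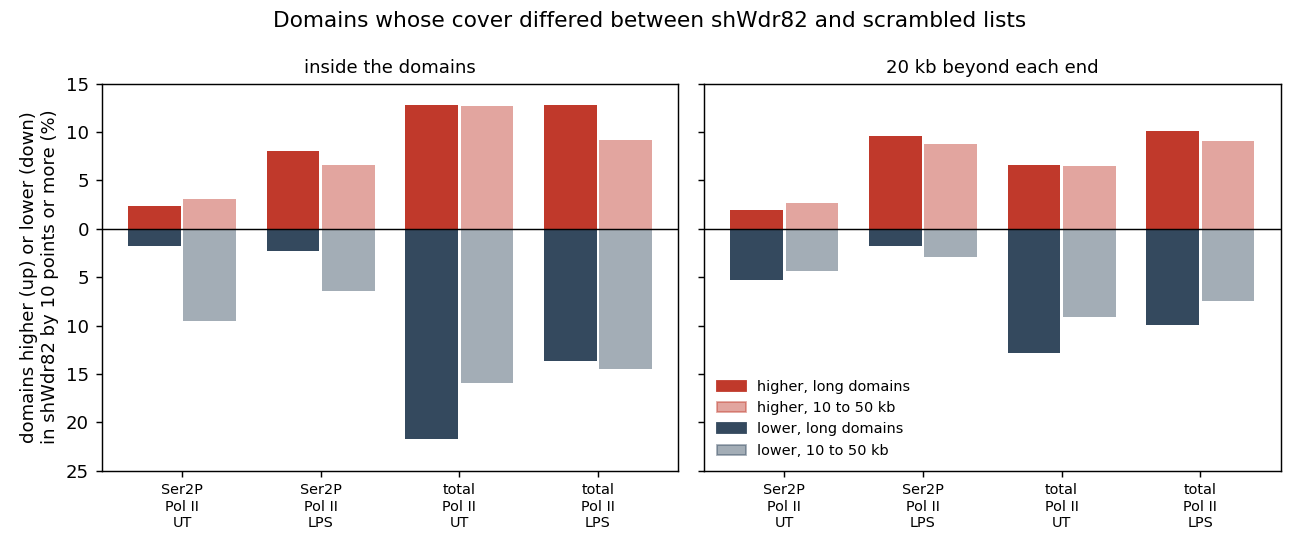
Share of domains (y axis, percent) whose cover was higher (upward) or lower (downward) in shWdr82 than in scrambled cells by 10 percentage points or more, for Ser2P and total Pol II in UT and LPS cells (x axis). Dark bars are the 562 long domains and pale bars the 7001 shorter ones. For Ser2P in LPS cells beyond the ends, 9.61% of long and 8.78% of shorter domains were higher.

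Ser2P cover was higher in shWdr82 LPS cells in the flanks at both ends of the domains with an inferred direction. In the 20 kb beyond the end with H3K4me3 it was 10.6% in shWdr82 LPS cells and 8.25% in scrambled LPS cells. The 20 kb past the end without H3K4me3 held the 2 kb step with the most Ser2P. Over these 20 kb cover averaged 12.2% in shWdr82 LPS cells and 9.70% in scrambled LPS cells, higher in 99 domains and lower in 39 (71.7% higher, 63.5% to 79.1%). By distance past that end, the first 2 kb had 30.2% in shWdr82 LPS cells and 28.5% in scrambled LPS cells. The difference was widest at 4 to 6 kb, with 17.2% in shWdr82 LPS cells and 12.4% in scrambled LPS cells. At 8 to 10 kb there was 9.14% in shWdr82 LPS cells and 5.32% in scrambled LPS cells, and at 18 to 20 kb 5.29% in shWdr82 LPS cells and 3.65% in scrambled LPS cells. In UT cells there was 15.5% in shWdr82 and 14.2% in scrambled cells at 4 to 6 kb, and 5.38% in shWdr82 and 4.90% in scrambled cells at 8 to 10 kb. Over the 20 kb, UT cells had 10.5% in shWdr82 and 10.7% in scrambled cells.

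How far the Pol II peaks reached past that end was measured where both lists had a run of peaks, joined across 1000 bp, within 1 kb of the end. For Ser2P after LPS this held in 80 domains. In a further 12 the shWdr82 LPS list alone had a run there, and in 17 the scrambled LPS list alone. The median reach was 4980 bp in shWdr82 LPS cells and 3721 bp in scrambled LPS cells, longer in 60 domains and shorter in 19 (75.9% longer, 65.0% to 84.9%), with a median difference of 840.5 bp. For Ser2P in UT cells, over 100 domains, the medians were 3894 bp in shWdr82 UT cells and 3302 bp in scrambled UT cells. There 56 were longer in shWdr82 UT cells and 41 shorter (57.7% longer, 47.3% to 67.7%), an interval that includes an even split. A Ser2P run was in the shWdr82 UT list alone in 7 domains and in the scrambled UT list alone in 16. Where both lists had a run, total Pol II peaks also reached further in shWdr82 cells. In UT cells the medians over 116 domains were 2676 bp in shWdr82 and 2396 bp in scrambled cells, longer in 78 and shorter in 35 (69.0% longer, 59.6% to 77.4%). In a further 16 domains the shWdr82 UT list alone had a run there, and in 28 the scrambled UT list alone. Total Pol II cover of the 20 kb past that end was not higher, at 16.1% in shWdr82 UT cells and 17.4% in scrambled UT cells. After LPS the median reach of total Pol II was 2702 bp in shWdr82 and 2175 bp in scrambled cells over 69 domains. It was longer in 45 and shorter in 20 (69.2% longer, 56.6% to 80.1%). In a further 16 domains the shWdr82 LPS list alone had a run there, and in 22 the scrambled LPS list alone. In the longest domains, of 100000 bp or more, the share longer after LPS was 33.3%. This rested only on chr7:56653204-56753898 (17855 bp in shWdr82 against 38597 bp in scrambled cells), chr16:84949588-85071639 (3616 against 3585 bp) and chr18:49993787-50125399 (6101 against 6218 bp).

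**Figure D5:**
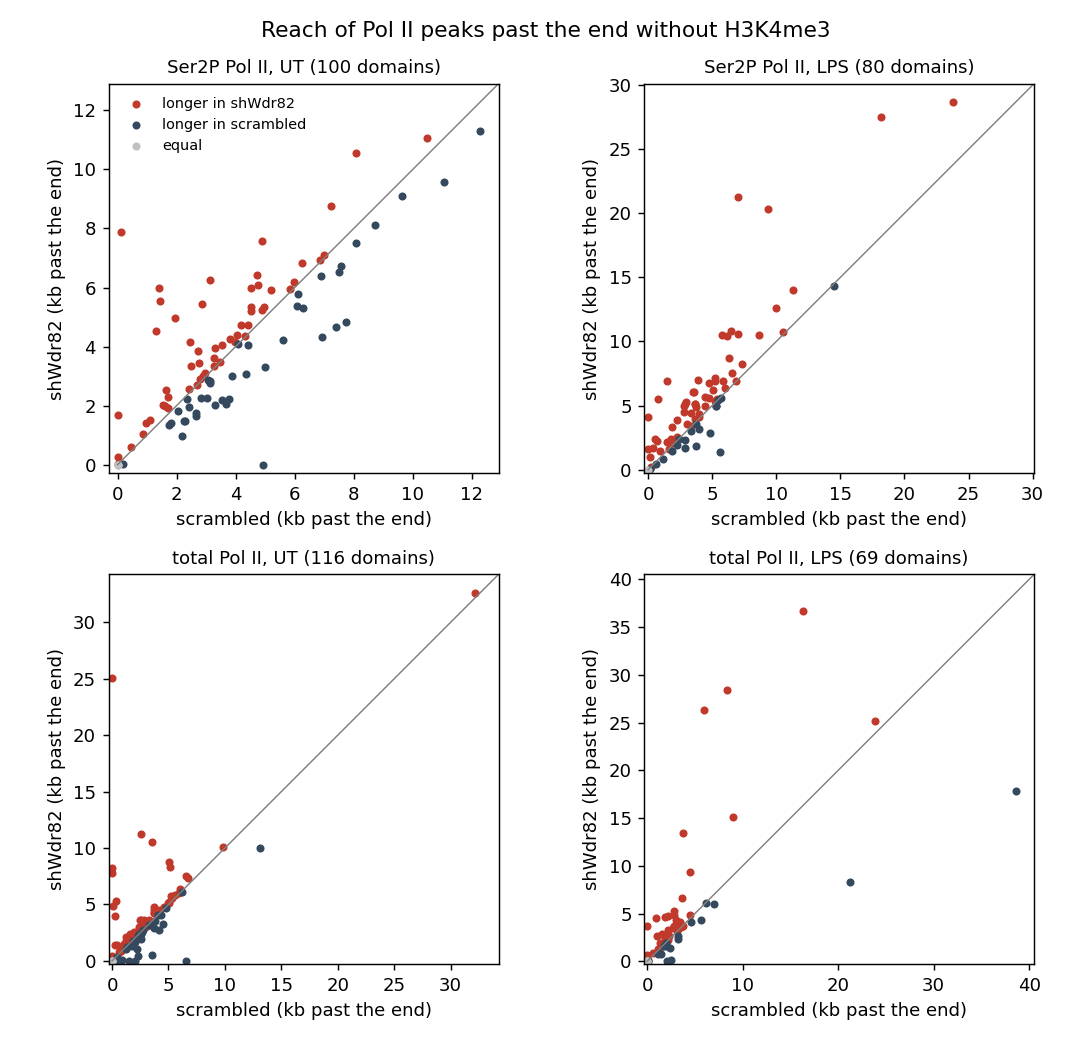
Reach of Ser2P (top) and total Pol II (bottom) peaks past the end without H3K4me3, in kb, in shWdr82 (y axis) against scrambled cells (x axis), in UT cells (left) and after LPS (right). Each point is 1 long domain with a run of peaks at that end in both lists, and the line marks equal reach. For Ser2P after LPS, 60 points lie above the line and 19 below. For Ser2P in UT cells it is 56 and 41.

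The same measure at the end with H3K4me3 and in shorter domains sets these counts in context. Ser2P runs at the end with H3K4me3 were longer in shWdr82 LPS cells in 24 domains and shorter in 16 (60.0% longer, 43.3% to 75.1%), with medians of 3952 bp in shWdr82 LPS cells and 3374 bp in scrambled LPS cells. Total Pol II runs there were longer in shWdr82 UT cells in 88 domains and shorter in 54 (62.0% longer, 53.5% to 70.0%). Past the end without H3K4me3 of shorter domains, Ser2P reach after LPS was longer in 780 and shorter in 276 (73.9% longer, 71.1% to 76.5%), and total Pol II reach in UT cells was longer in 773 and shorter in 496 (60.9% longer, 58.2% to 63.6%). The longer reach of Ser2P after LPS was therefore not particular to long domains.

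Total Pol II cover was not higher on average in shWdr82 cells. Inside, it averaged 25.9% in shWdr82 UT cells and 29.0% in scrambled UT cells, lower in 293 domains and higher in 228. In these cells 122 domains were called lower (21.7%) and 72 higher (12.8%), against 11.1% and 9.09% of all joined domains and 15.9% and 12.7% of the shorter ones. After LPS the averages were 20.3% in shWdr82 and 21.1% in scrambled cells, with 77 called lower (13.7%) and 72 higher (12.8%), against 9.51% and 7.21% of all joined domains. With lists cut to equal numbers of their best-scoring peaks, 50.9% of the domains that differed were higher in shWdr82 UT cells, so the lower cover in UT cells was not kept under that setting. In the 31 domains of 100000 bp or more, the share higher in shWdr82 LPS cells was 56.7%, against 45.1% in all 562. In the 54 domains whose flanks were called higher for Ser2P in shWdr82 LPS cells, total Pol II covered 27.6% of the flanks in shWdr82 LPS cells and 25.9% in scrambled LPS cells, higher in 32 and lower in 21. In the 10 whose flanks were called lower for Ser2P it covered 15.5% in shWdr82 LPS cells and 27.3% in scrambled LPS cells, higher in 1 and lower in 8. In called flanks total Pol II thus differed in the same direction as Ser2P more often than in the other.

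LPS went with less total Pol II over the long domains in both vectors. Cover inside averaged 20.3% in shWdr82 LPS cells and 25.9% in shWdr82 UT cells, lower with LPS in 361 domains and higher in 155. In scrambled cells it averaged 21.1% with LPS and 29.0% without, lower in 370 and higher in 144. Called lower were 207 domains in shWdr82 cells (36.8%), against 19.9% of all joined domains and 32.1% of the shorter ones. In scrambled cells 222 were called lower (39.5%), against 20.4% of all joined domains and 32.5% of the shorter ones. The total Pol II lists as a whole covered 0.889 times as many bases with LPS as without in shWdr82 cells and 0.797 times in scrambled cells. Inside the long domains the ratio was 0.806 in shWdr82 and 0.741 in scrambled cells. In the 31 domains of 100000 bp or more, 60.0% of those that differed were higher with LPS in shWdr82 cells. The comparisons of the 2 vectors share no library.

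Ser2P inside moved both ways with LPS. In shWdr82 cells 66 domains were called higher (11.7%) and 28 lower (4.98%), against 8.09% and 7.02% of all joined domains. In scrambled cells 36 were called higher (6.41%) and 40 lower (7.12%), against 5.78% and 9.01%. Total Pol II, a separate measurement, went the same way in its mean in these domains, but split almost evenly by count where Ser2P was higher. In the 66 domains with higher Ser2P in shWdr82 cells it covered 47.8% with LPS and 39.6% without, higher in 35 and lower in 30. In the 28 with lower Ser2P it covered 20.6% with LPS and 45.8% without, higher in 3 and lower in 24. In scrambled cells the 36 domains with higher Ser2P had 54.3% with LPS and 41.9% without, higher in 18 and lower in 15. The 40 with lower Ser2P had 15.3% with LPS and 43.4% without, higher in 7 and lower in 32. Domains called neither way also had less total Pol II with LPS, at 16.4% against 22.7% in shWdr82 and 19.1% against 26.9% in scrambled cells.

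Single domains show what these changes look like. At chr11:93904713-93988819, which ranked first for higher total Pol II with LPS by the smaller of the differences in the 2 vectors, total Pol II covered 99.2% in shWdr82 LPS cells and 99.3% in scrambled LPS cells, against 18.0% in shWdr82 UT cells and 8.94% in scrambled UT cells. Ser2P there covered 20.5% in shWdr82 LPS cells and 19.6% in scrambled LPS cells, against 0% in shWdr82 UT cells and 1.80% in scrambled UT cells. Both Pol II readouts were thus higher with LPS in both vectors. At chr9:21262431-21314210 total Pol II went the other way, with 3.18% in shWdr82 LPS cells and 8.14% in scrambled LPS cells, against 88.3% in shWdr82 UT cells and 84.0% in scrambled UT cells. Ser2P was lower there too, at 4.61% in shWdr82 LPS cells and 7.24% in scrambled LPS cells, against 19.1% in shWdr82 UT cells and 12.2% in scrambled UT cells.

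At chr2:102649831-102706033 Ser2P covered 91.1% in shWdr82 LPS cells and 57.9% in scrambled LPS cells, against 3.53% in shWdr82 UT cells and 5.13% in scrambled UT cells. Total Pol II covered 100% of it in both LPS libraries, against 0% in shWdr82 UT cells and 53.2% in scrambled UT cells. At chr11:68260029-68312501 the readouts parted. Ser2P covered 100% in shWdr82 LPS cells and 99.4% in scrambled LPS cells, against 18.0% in shWdr82 UT cells and 2.60% in scrambled UT cells, yet neither LPS list held a total Pol II peak there. Total Pol II covered 27.2% of it in shWdr82 UT cells and 0% in scrambled UT cells. Whether total Pol II was absent where no peak was called, or only its peaks, was not tested.

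Domains that differed with the knockdown in both treatments were ranked by the smaller of the UT and LPS differences. By that rule chr6:91634514-91711510 came first for Ser2P inside, with 39.0% in shWdr82 UT cells against 17.3% in scrambled UT cells, and 26.0% in shWdr82 LPS cells against 3.39% in scrambled LPS cells. For Ser2P beyond the ends chr11:80024918-80083194 came first, with 39.5% in shWdr82 UT cells against 15.7% in scrambled UT cells, and 34.7% in shWdr82 LPS cells against 14.0% in scrambled LPS cells. Opposite cases existed as well. At chr2:22630602-22691943 Ser2P covered 12.6% in shWdr82 UT cells against 34.2% in scrambled UT cells, and 18.0% in shWdr82 LPS cells against 61.2% in scrambled LPS cells. The fourth longest domain, chr14:34060875-34202404, had Ser2P cover of 67.0% in shWdr82 LPS cells against 12.8% in scrambled LPS cells, and 23.7% in shWdr82 UT cells against 10.5% in scrambled UT cells.

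For total Pol II the widest contrast was at chr14:75577051-75631844, where both shWdr82 lists had no peak and both scrambled lists covered 100%. Each scrambled list held 1 peak across the whole domain, 60744 bp wide in UT cells and 72671 bp wide in LPS cells. The nearest total Pol II peaks of the shWdr82 lists lay 20686 bp to the left and 51435 bp to the right in UT cells, and 73448 bp to the left and 51585 bp to the right in LPS cells. Ser2P did not follow in UT cells, with 31.1% in shWdr82 UT cells and 31.2% in scrambled UT cells. After LPS Ser2P was 38.5% in shWdr82 cells and 87.0% in scrambled cells. Whether total Pol II was absent there in shWdr82 cells, or only its peaks, was not tested. In UT cells 6 long domains in all had total Pol II cover of 80% or more in scrambled cells and 5% or less in shWdr82 cells, and none the reverse. In those 6, Ser2P averaged 21.7% in shWdr82 UT cells and 17.6% in scrambled UT cells. After LPS 3 domains had this pattern and 2 the reverse. This cut, chosen after cover values had been seen, was applied to the long domains alone. Whether these counts differ from what all joined domains would give was not tested. At chr14:33770284-33863145 total Pol II was higher in shWdr82 cells, at 68.6% in shWdr82 UT cells against 28.0% in scrambled UT cells, and 76.3% in shWdr82 LPS cells against 36.1% in scrambled LPS cells. Ser2P inside that domain stayed low, at 3.44% in shWdr82 UT cells against 3.05% in scrambled UT cells, and 6.10% in shWdr82 LPS cells against 3.23% in scrambled LPS cells.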

How the data were processed

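The 24 ChIP-seq libraries were deposited as peak lists. Per the submitters' processing notes, the authors used Bowtie 0.12.7, MACS 1.4 and the mm9 build; the sources used here give no read counts or input. The deposited score, the authors' value for a peak, served only to order or select peaks of 1 list, and the other deposited columns used are peak starts and ends, written here counted from 1. Each list is 1 library with its own peaks, so replicates could not be compared, and depth is unknown.

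Peaks of the scrambled UT H3K36me3 list at most 1000 bp apart were joined, and domains of 50000 bp or more kept. Cover by each list was computed inside and in 20000 bp beyond each end with Python 3.11.15, numpy 2.4.6, pandas 2.3.3 and scipy 1.17.1, and the code was tested on simulated data. A domain was called where cover differed by 10 percentage points or more. Overlap means 1 bp. Intervals are exact binomial at 95%. The domains and lists were chosen with earlier results of these data known, and the reach of peak runs and the cut at 80% and 5% cover were chosen after cover values had been seen. Named domains are the longest and those ranked first for each readout by the smaller of the 2 differences, in both treatments or both vectors, where their signs agreed. The example chr2:102649831-102706033 and the fourth longest domain were picked from these by their values. The gene and promoter tables at hand use GRCm38, so no gene name or sequence was joined to mm9 positions.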

Additional observations from a re-analysis of the deposited data

Results flagged for a closer look

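The difference in Ser2P cover between shWdr82 and scrambled cells had opposite signs in the 2 treatments. Inside the long domains it was -0.237 percentage points in UT cells and 1.37 percentage points after LPS. In the 20 kb beyond each end it was -0.601 percentage points in UT cells and 2.34 percentage points after LPS. In the same flanks the difference with LPS was 2.36 percentage points in shWdr82 cells and -0.584 percentage points in scrambled cells. With 1 library in each group the difference between these differences was not tested. The shWdr82 LPS list covered 60.6 Mb in all, against 43.0 Mb in shWdr82 UT, 44.7 Mb in scrambled LPS and 46.0 Mb in scrambled UT, and its part in these values was not tested.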

How the results depend on the processing

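Each share of domains with more cover in the first-named group, among the domains that differed, was recomputed with other joining distances, lengths, choosing lists, score limits, flanks and H3K4me3 windows. Drawing the domains in either shWdr82 list was added after seeing the data. The number of long domains and the shares of domains with a Ser2P or total Pol II peak were recomputed as well. Of all 325 recomputed values, 268 stayed close to the main value, 52 moved, and 5 lay on the other side of 50% where the main interval did not include 50%. Counting also those whose main interval did include it, 25 of the 238 shares recomputed for comparisons of groups lay on the other side of 50% from the main value. The causes were not tested. No paired analysis was possible because each group is 1 library and the labels carry no replicate numbers. After LPS, the shares with more Ser2P in shWdr82 cells stayed above 50% under every setting run, at 55.0% to 76.0% inside, 67.4% to 79.4% beyond both ends, 60.0% to 77.9% beyond the end without H3K4me3 and 66.7% to 81.2% for reach. No setting run made the widths of peaks equal between lists.

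A length of 30000 bp gave 1898 domains and one of 100000 bp gave 31. Shares in those 31 count only domains that differed. Shares past the end without H3K4me3 also need an inferred direction, and those for reach a run in both lists as well. Shares for reach thus rest on far fewer domains than 31. In those 31, the knockdown shares in UT cells were 68.0% for Ser2P inside, 37.9% for total Pol II beyond both ends and 80% for total Pol II reach. The knockdown shares after LPS were 67.7% for H3K36me3 inside, 33.3% for H3K36me3 beyond, 56.7% for total Pol II inside, 55.2% beyond both ends, 66.7% beyond the end without H3K4me3 and 33.3% for reach, and 60.0% for Ser2P beyond that end. Shares with LPS inside were 60.0% (shWdr82) and 43.3% (scrambled) for total Pol II, and 63.0% (shWdr82) and 48.1% (scrambled) for Ser2P.

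With lists cut to equal numbers of their best-scoring peaks, total Pol II gave 50.9% inside and 55.8% beyond both ends for the knockdown in UT cells, and 38.3% in shWdr82 and 41.5% in scrambled cells for LPS inside. Counting only differences of 5 points or more, the knockdown shares after LPS were 61.9% for H3K36me3 inside, 76.0% for Ser2P inside and 78.7% for Ser2P beyond. In UT cells they were 36.5% for Ser2P beyond, 44.7% for total Pol II beyond both ends and 44.9% beyond the end without H3K4me3, and the share with LPS for Ser2P inside in shWdr82 cells was 56.1%. In flanks free of other H3K36me3 domains, Ser2P gave 79.4% after LPS and 53.8% in UT cells, and total Pol II after LPS gave 54.6% beyond both ends and 69.0% beyond the end without H3K4me3. Domains drawn in the shWdr82 LPS list gave 69.7% for Ser2P reach in UT cells and 32.9% for total Pol II inside with LPS in scrambled cells. Those drawn in the scrambled LPS list gave 58.8% for total Pol II reach in UT cells. Unknown depth limits all shares that compare lists.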
